A study of Arabidopsis thaliana with 4 samples.

Results

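The calcium and MAP kinase signalling genes described here were 9 genes of Arabidopsis thaliana, chosen by their gene symbols out of 13356 genes identified on expression arrays. Only 1557 of the 13356 had a symbol other than a locus code, and a gene with a locus code alone could not be chosen. The symbols taken were those of calmodulins (CAM), calmodulin-like proteins (CML), calcineurin B-like proteins (CBL), calcium-dependent protein kinases (CPK and CDPK), genes named CRK, CBL-interacting kinases (CIPK, also called SNRK3), SNRK2 kinases and the 3 tiers of the MAP kinase cascade (MAPKKK, MKK and MPK). Such a symbol is carried by 172 genes in RefSeq. The 9 that could be analysed here were 7 of the 8 with a CML symbol (CML23, CML30, CML37, CML38, CML41, CML42 and CML43) and 2 of the 20 with an MPK symbol (ATMPK8 and ATMPK13). Family genes listed under another name or a locus code are not in these counts, so 8 is not the size of the CML family. An example is AT1G76640, which has CML39 among its synonyms. The other 10 symbol families, which include all the calcium-dependent kinases, had 0 genes analysed here, so the account below covers calcium sensors and 2 MAP kinases and not the pathway between them.

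RNA came from immature inflorescences of the primary bolts of 5-week-old plants of ecotype Ler-0, with 10 inflorescences pooled per time point. The group called T24 was cut and then kept for 24 h in darkness at 21 °C on wet blotting paper, with 50 mL of water in a 2 L box (2 arrays). The group called T0 was cut in the same way, 11 h into the light period of 16 h, and frozen at once (2 arrays). No mutant, transgene or added agent was used, both groups had been detached, and no group stayed attached, in light or on sugar. The effects of darkness, detachment, lost supply, holding in the box and a day of time therefore cannot be told apart. Values are log2 signals of Affymetrix probe sets summarised with RMA, a change is T24 minus T0, and 1 unit is a 2-fold difference.

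Calcium ions act as a second messenger in plant cells. Stimuli open channels, the free ion binds sensor proteins through EF-hand loops, and the sensors pass the signal on by binding other proteins. Calmodulin-like proteins are such sensors without an enzyme domain of their own. MAP kinases are the last kinases of a relay of 3 kinases, are switched on by phosphorylation of a threonine and a tyrosine in the activation loop, and act in stress responses, cell division and development. Both kinds of protein work through binding and phosphorylation, while the arrays measured RNA only.

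Whole inflorescences were measured, so fewer cells of a type and less RNA per cell cannot be told apart. The labelled tissue could be checked on 4 of the listed flower identity genes. SPT, a carpel factor, had a mean of 8.13 at T24 and 7.29 at T0, SPL, a factor of sporogenous cells, had 5.28 at T24 and 6.25 at T0, and UFO and CLV3, of small regions of the floral meristem, had means under 5 over the 4 arrays. Correlations across probe sets were 0.961 within T24, 0.954 within T0 and 0.839 to 0.873 between the groups. The table has no detection calls, and 35.5% of all 22746 probe sets had a mean under 5, where differences are compressed. Among the 9 genes, 4 had a mean of at least 5.

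None of the 9 genes passed the test (0 higher, 0 lower) at an adjusted p of 0.05 in limma, where 13.2% of all probe sets passed, 6.39% higher and 6.84% lower at T24. At an unadjusted p under 0.05 there were 2 of 9, against 30.4% of probe sets. With any 1 array left out, 0 probe sets passed, the smallest adjusted p in limma being 0.054 to 0.0936, so that a fit on 3 arrays does not tell single calls apart. CML30 and CML41 stood higher on both T24 arrays than on either T0 array, and ATMPK13 and CML43 lower. That makes 4 of 9 genes whose groups did not overlap, against 57.4% of probe sets, of which 27.4% had T24 above and 30.0% had T24 below. The median change of the 9 was -0.03, with a range of -1.24 to 1.82, beside -0.00484 over all probe sets.

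**Figure D1:**
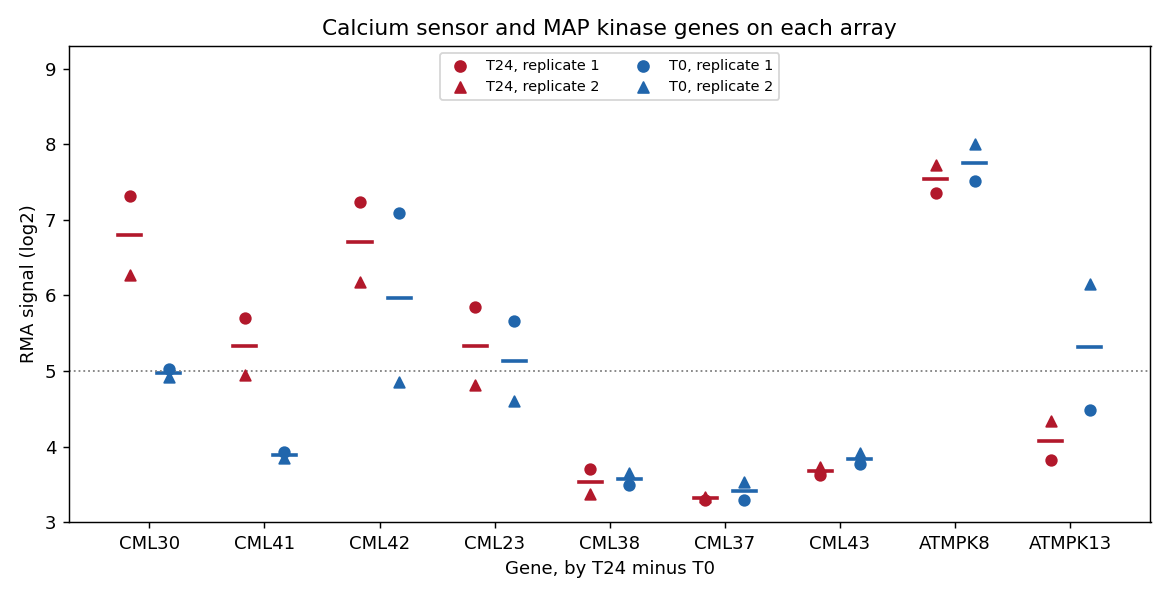
RMA signal (log2, vertical axis) of the 9 genes (horizontal axis, by change) on each T24 array (red) and T0 array (blue), with circles for replicate 1, triangles for replicate 2, bars for group means and a dotted line at 5. CML30 and CML41 lie higher on both T24 arrays than on both T0 arrays, and levels of different genes are not comparable because their probes differ.

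Among the sensors, CML30 had the largest difference. In Arabidopsis its protein is known to be located in mitochondria. Its signal was 7.32 and 6.27 on the T24 arrays, against 5.03 and 4.92 on the T0 arrays. Both T24 values were higher and also far apart, and both T0 values lay near 5. The change was 1.82 ± 0.41 (SE of the fit, n = 2 arrays each), a 3.53-fold difference with a 95% interval of 0.69 to 2.95, and limma's adjusted p was 0.0652. Of all probe sets, 5.25% had a change at least as large in this direction.

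CML41 encodes a sensor of plasmodesmata, the channels between plant cells, where it is known to promote callose deposition and closure in immune responses. Its signal was 5.70 and 4.95 at T24, against 3.93 and 3.85 at T0. The T0 arrays differed from each other by 0.08 and the T24 arrays by 0.75, with no overlap between groups. The change was 1.43 ± 0.31 (SE, n = 2 each), or 2.70-fold, with a 95% interval of 0.57 to 2.30 and an adjusted p of 0.0619 in limma. Since both T0 values were under 5, where differences are compressed, the size is approximate. CML30 and CML41 came close to a call: at their standard errors, changes of 2.09 for CML30 and 1.61 for CML41 would have been needed. CML30 passed where only probe sets with a mean of at least 5 were tested (adjusted p = 0.0437 in limma). CML41 passed where each array was centred on its median (adjusted p = 0.049 in limma). Centring added 0.16 to every change, although the median over all probe sets was -0.00484 without it. With quantile normalization neither passed (adjusted p = 0.0536 for CML30 and 0.0653 for CML41 in limma). The filter on the mean used all 4 arrays and kept CML30 through its T24 signal, since its T0 mean was 4.98.

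CML42, which is known for roles in trichome branching and in defence against insects, varied more within the groups than between them. Its signal was 7.23 and 6.18 at T24, against 7.09 and 4.85 at T0. A single T0 array was low, and the other lay inside the T24 range. The change of 0.73 ± 0.88 (SE, n = 2 each; adjusted p = 0.681 in limma) became -0.39 without T0 replicate 2, and its 95% interval ran from -1.71 to 3.17. A change of 4.52 would have been needed for a call, so little can be said of this gene.

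CML23 is known, with its close relative CML24, to affect flowering time and nitric oxide levels. Its signal was 5.85 and 4.82 at T24, against 5.66 and 4.61 at T0. Replicate 1 was higher than replicate 2 by 1.03 at T24 and by 1.05 at T0, and the groups overlapped. The change of 0.20 ± 0.54 (SE, n = 2 each; adjusted p = 0.879 in limma) was smaller than either gap, turned to -0.32 without T0 replicate 2 and to -0.31 without T24 replicate 1, and had a 95% interval of -1.30 to 1.70.

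The other 3 sensors had means under 4 on the log2 scale in both groups. CML38, a gene induced by low oxygen whose protein is found in stress granules, had a signal of 3.70 and 3.37 at T24, against 3.49 and 3.65 at T0. The groups overlapped, and the change was -0.03 ± 0.21 (SE, n = 2 each; 95% interval -0.62 to 0.56). CML37, known to be induced by wounding and to act in jasmonate and drought responses, stood at 3.30 and 3.33 at T24, against 3.29 and 3.53 at T0, a change of -0.09 ± 0.19 (SE, n = 2 each; 95% interval -0.62 to 0.44). CML43, known for a role in resistance to bacteria, stood at 3.63 and 3.73 at T24, against 3.77 and 3.91 at T0. Its groups did not overlap, yet the change of -0.16 ± 0.18 (SE, n = 2 each; 95% interval -0.66 to 0.34) was close to the gaps of 0.10 at T24 and 0.15 at T0. In limma the adjusted p of all 3 was between 0.659 and 0.959. With each array centred on its median the changes were 0.12 for CML38, 0.06 for CML37 and -0.01 for CML43. Quantile normalization gave -0.05 for CML38, -0.11 for CML37 and -0.19 for CML43. At such signals a low transcript level and an insensitive probe set cannot be told apart.

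**Figure D2:**
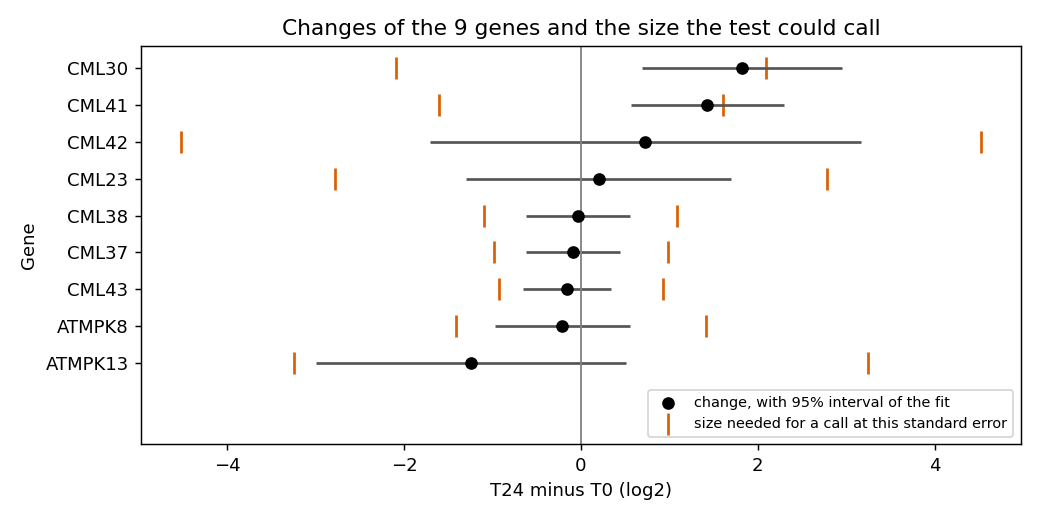
T24 minus T0 (log2, horizontal axis) of each gene (vertical axis), with the 95% interval of limma's fit as a line and, as orange ticks on either side of 0, the size that would have been called at that gene's standard error. The points of CML30 (1.82) and CML41 (1.43) lie just inside their ticks at 2.09 and 1.61, and the widest interval is that of CML42.

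Both MAP kinase genes had lower means at T24 and neither passed. ATMPK8 encodes a kinase of the group with a threonine-aspartate-tyrosine activation motif. It is known to be activated through the kinase MKK3 and by calmodulin binding after wounding, which links it to calcium. Its signal was 7.36 and 7.73 at T24, against 7.51 and 8.00 at T0. The groups overlapped, and the change of -0.21 ± 0.28 (SE, n = 2 each; adjusted p = 0.704 in limma) was smaller than the gaps between replicates. The 95% interval ran from -0.97 to 0.55, and without T0 replicate 2 the change was 0.03. Its mean was above 7 in both groups, well over the level of 5 under which differences are compressed.

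ATMPK13 encodes a kinase that acts below the kinase MKK6 and is known for roles in cell division and lateral root formation. Its signal was 3.82 and 4.34 at T24, against 4.49 and 6.15 at T0. Both T24 arrays were lower than both T0 arrays, the nearest pair being 4.34 and 4.49, and the T0 arrays were 1.66 apart. The change was -1.24 ± 0.64 (SE, n = 2 each), a 2.37-fold lower signal with a 95% interval of -3.00 to 0.51 and an adjusted p of 0.295 in limma. It was -2.08 without T0 replicate 1 and -0.41 without T0 replicate 2, so the size rests on the single T0 array that was well above 5.

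**Figure D3:**
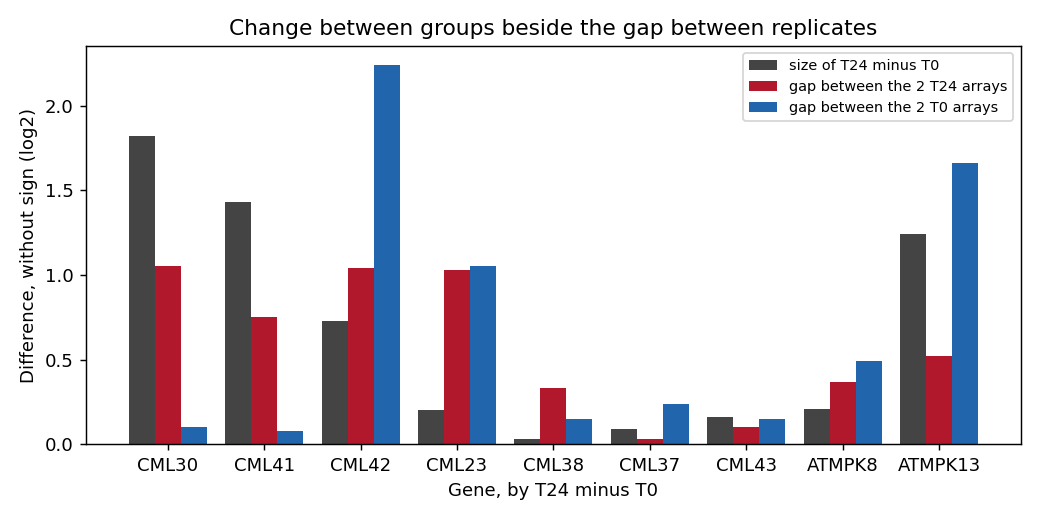
Size of T24 minus T0 without its sign (grey), the gap between both T24 arrays (red) and the gap between both T0 arrays (blue), all in log2 units from 0, for each gene. The change is larger than both gaps for 3 of 9 genes, CML30, CML41 and CML43, and for CML42 the gap at T0 is 2.24.

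The change exceeded both replicate gaps for 3 of the 9 genes, CML30, CML41 and CML43, against 47.2% of all probe sets. CML43 did so by 0.16 against gaps of 0.10 and 0.15. Its change was -0.01 with median centring, which added 0.16 to every change, and -0.19 with quantile normalization. The median gap over all probe sets was 0.28 at T24 and 0.32 at T0. CML30, CML42 and CML23 were more than 1 unit apart between the T24 arrays, as were CML42, CML23 and ATMPK13 between the T0 arrays.

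The genes around these sensors and kinases were examined through 10 lists of channels, pumps, upstream kinases, phosphatases, receptors, substrates and partner kinases. Of 245 listed symbols 21 genes could be analysed here, and 3 lists (calmodulin-binding transcription factors, MAP kinase phosphatases, and abscisic acid receptors with their phosphatases) had 0. In all, 3 of the 21 rose and 0 fell in limma, beside the 6.39% and 6.84% of probe sets given above.

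For calcium entry, 0 of 8 glutamate receptor-like channel genes passed in limma. At an unadjusted p under 0.05 there were also 0 of 8, against 30.4% of all probe sets. Their changes ran from -0.54 to 0.25 with a median of 0.03, and 6 of 8 had a mean under 5. GLR3.3, which is known to carry wound signals between leaves, had 6.88 and 6.91 at T24, against 6.83 and 6.70 at T0, a change of 0.13 ± 0.18 (SE, n = 2 each). Of 2 genes matched by name to the list of calcium pumps and exchangers, 0 passed. The place of ACA.l (AT1G13210) on it rests on that name alone, and whether it moves calcium was not tested. The sodium-calcium exchanger-like gene NCL (AT1G53210) had 11.70 and 11.10 at T24, against 11.00 and 10.45 at T0, and changed by 0.67 ± 0.33 (SE, n = 2 each; adjusted p = 0.283 in limma).

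Of 3 measured Raf-like genes listed as MAP kinase kinase kinases with other names, 1 rose. Whether they act in a MAP kinase cascade was not tested. ATN1, a Raf-like protein kinase, had 7.58 and 7.66 at T24, against 6.11 and 6.34 at T0. Both groups were tight and well apart, and the rise was 1.40 ± 0.19 (SE, n = 2 each), or 2.63-fold (adjusted p = 0.0274 in limma), and 1.28 to 1.51 with any 1 array left out. The other 2, RAF10 and RAF11, stood at -0.25 and -0.02. Of 2 measured MAP kinase substrates and outputs, WRKY22 rose. This transcription factor, known to act below the MAP kinases of immune signalling, had 7.89 and 6.83 at T24, against 4.43 and 5.16 at T0 (adjusted p = 0.0472 in limma). This call was close to the threshold and was lost under robust variance estimation (adjusted p = 0.0512 in limma). SPCH, a stomatal lineage factor that MAP kinases phosphorylate, stood at -0.79 ± 0.20 and did not pass (adjusted p = 0.0828 in limma).

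Of the 3 measured outputs of SnRK2 kinases, 0 passed in limma and 0 had an unadjusted p under 0.05, against 30.4% of all probe sets. COR47, a dehydrin, had 12.21 and 11.86 at T24, against 11.12 and 9.12 at T0, a change of 1.92 ± 0.73 (SE, n = 2 each; adjusted p = 0.182 in limma) that was 2.92 without T0 replicate 1 and 0.92 without T0 replicate 2. The transcription factor gene EEL stood at -0.62 ± 0.41. LEA4-5, of a late embryogenesis abundant protein, had 4.64 and 6.26 at T24, against 4.96 and 3.74 at T0, with overlapping groups. Of the targets of CBL-CIPK pairs, the single measured gene VHA-A3, a subunit of the vacuolar proton pump, stood at -0.56 ± 0.37. Of 2 SnRK1 subunit genes AKINBETA1 rose, with 12.11 and 12.46 at T24, against 7.11 and 7.53 at T0 (adjusted p = 0.0143 in limma), and the other, KINBETA3 (AT2G28060), stood at 0.26 ± 0.22.

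**Figure D4:**
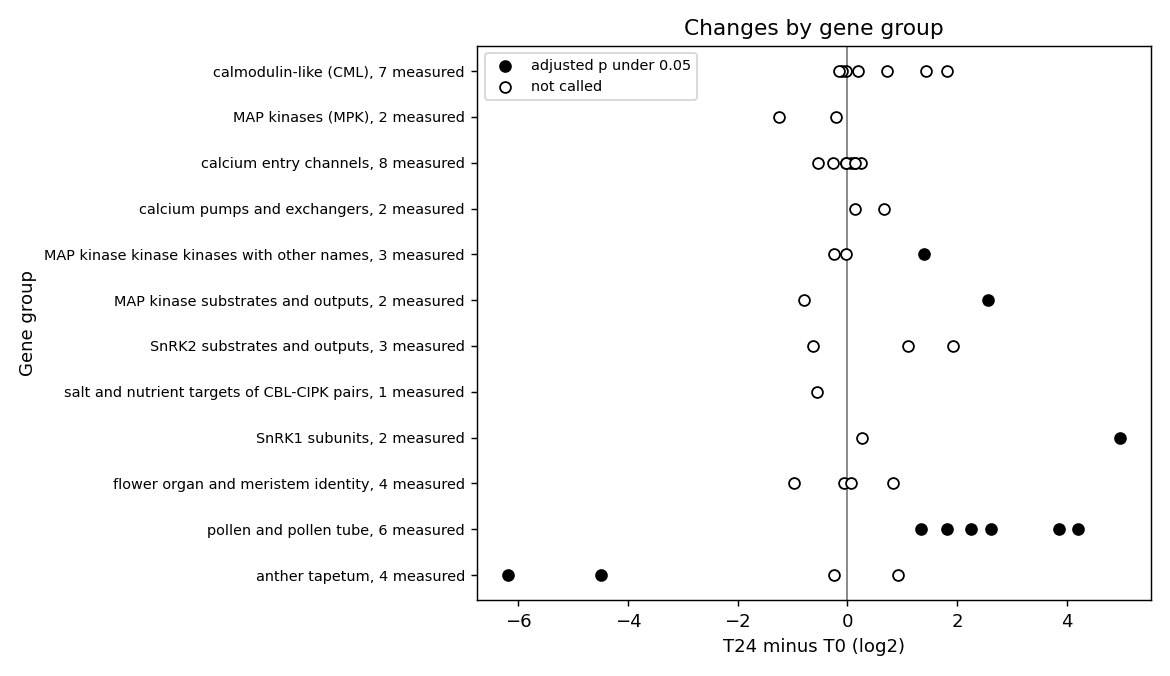
T24 minus T0 (log2, horizontal axis) of the 9 genes chosen by a CML or MPK symbol. Below them are the measured genes of the other signalling lists and the cell type marker lists (vertical axis). Filled points mark an adjusted p under 0.05 in limma and open points none. Filled points in the signalling lists are ATN1, WRKY22 and AKINBETA1, while all 6 pollen markers are filled and lie at 1.34 or higher.

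Markers of other cell types moved between the groups. All 6 measured pollen and pollen tube genes rose, by 1.34 to 4.20, among them AT59, a pectate lyase, by 4.20 ± 0.23, ANX2, a receptor kinase of pollen tubes, by 3.85 ± 0.61 and MGH3, a sperm cell histone, by 2.61 ± 0.42 (SE, n = 2 each; adjusted p between 0.0143 and 0.0350 in limma). Their mean signal per array was 7.51 and 7.90 at T24, against 5.16 and 4.88 at T0. Of 4 tapetum genes 2 fell, SHT with a change of -6.19 ± 0.39 and ATA27 with one of -4.50 ± 0.82 (SE, n = 2 each). The other 2 did not pass: SWEET8 had a change of 0.93 ± 0.30, with both T24 arrays above both T0 arrays, and AMS one of -0.24 ± 0.29. The list's mean signal, which SHT and ATA27 carry downward, was 7.23 and 6.54 at T24, against 9.70 and 9.07 at T0. The part of either in the values of CML30, CML41 and ATMPK13 was not tested.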

How the data were processed

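The authors deposited 1 table of log2 values for 22746 probe sets on 4 arrays, and the submitters' processing notes give RMA as the method, with no version. Base 2 was inferred from what RMA normally writes and from the range of 2.71 to 14.44. Groups and replicate numbers came from the titles. Whether each biological replicate had its own pool is not stated, so the p-values reflect only how these arrays differ, which may be technical.

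Of the probe sets, 13513 had 1 gene in the platform annotation, 503 several and 8730 none. Names were updated by gene identifier in RefSeq's TAIR10.1 table (13436 matched). Each of the 9 genes had 1 probe set. T24 minus T0 was fitted over all probe sets with limma 3.58.1 in R 4.3.3 (lmFit, eBayes, no filter or covariate, two-sided), with Benjamini-Hochberg adjustment and calls under 0.05. The fit was also run on simulated data. With 200 probe sets changed, 8.49% of calls were false and 2.94% of changes of 1 unit were recovered. With 5000 changed, these shares were 3.79% and 60.3%. The simulated arrays varied independently, whereas replicate differences at T24 and T0 correlated at 0.63 across the real probe sets. These shares may therefore not hold for the real arrays. The size needed for a call takes the largest called p, 0.00661, as its limit.

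Members, lists and tests were chosen with earlier results of these data known. All 9 members are named, and from each list up to 3 called genes with the largest changes, or the one with the highest signal. RAF10, RAF11, SPCH, EEL, LEA4-5, SWEET8, AMS, UFO, CLV3, SPL and KINBETA3 were named outside that rule, after their values were seen. Alternatives were a replicate block, other variance models, scalings, filters, thresholds and member choices, and leaving out each array.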

Additional observations from a re-analysis of the deposited data

How the results depend on the processing

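The count of 0 of 9 genes past the threshold was the same in limma with an intensity trend, robust variances, quantile normalization, a 2-fold limit, 1 probe set per gene, all probe sets of each gene and platform symbols alone, and became 1 with median centring (CML41, adjusted p = 0.049), 1 with probe sets of a mean of at least 5 (CML30, adjusted p = 0.0437, 4 genes tested) and 2 with a replicate block (CML30, adjusted p = 0.0342, and CML41, 0.0329). The filter on the mean kept CML30 through its T24 signal, its T0 mean being 4.98. Leaving out 1 array gave 0 calls among the 9 genes each time, and 0 over all probe sets against 3010, where a group of 1 array takes its spread from the other group. Without 1 array, 4888 to 5942 probe sets still had an unadjusted p under 0.05. Over all probe sets the block gave 6528 calls and 1 probe set per gene, with fewer tests, gave 1636. The labels do not say that a replicate number marks a shared batch, there are only 2 pairs, and replicate differences at T24 and T0 correlated at 0.63 across probe sets. NCL gained a call under the block (adjusted p = 0.0471), as did AT1G16020 (0.0171), and WRKY22 lost its own (0.0504). Median centring moved all changes by 0.16, although the median change over all probe sets was -0.00484 without it. It turned those of CML37 (0.06), CML38 (0.12) and AT1G80910 (0.02), so that 6 of 9 genes lay above 0 rather than 4. With quantile normalization the median over all probe sets was -0.01, and 4 of 9 genes lay above 0. Leaving out 1 array turned CML42 (-0.39 to 1.85), CML23 (-0.32 to 0.73), CML37 (-0.21 to 0.03), CML38 (-0.20 to 0.13), ATMPK8 (-0.46 to 0.03) and AT1G80910 (-0.28 to 0). No alternative without cysteine-rich receptor-like kinases was run, since no gene with a CRK symbol could be analysed here. With 2 arrays a group, the change needed for a call ran from 0.93 (CML43) to 4.52 (CML42) at each gene's standard error. It was smallest for CML37, CML38 and CML43, the genes with the lowest signals. Signals under 5 limit CML37, CML38, CML41, CML43 and ATMPK13.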

Other observations

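A search of RefSeq's synonyms for words of calcium and MAP kinase signalling, made after the values had been seen, named 5 more measured genes, of which 1 fell and 0 rose in limma, beside 6.84% of all probe sets lower and 6.39% higher. CaS encodes the calcium-sensing receptor of chloroplast thylakoids, a protein known from calcium-dependent stomatal closure and photosynthetic acclimation. Its signal was 5.93 and 6.10 at T24, against 9.25 and 8.56 at T0. Both T24 arrays were at least 2 units lower than either T0 array, and the gene fell by 2.89 ± 0.30 (SE, n = 2 each), a 7.44-fold lower signal (adjusted p = 0.0187 in limma). With any 1 array left out the change was between -3.24 and -2.55.

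The other 4 did not pass. AT1G76640, whose synonyms include CML39 and which lies next to CML38 in the annotation, had 3.30 and 3.35 at T24, against 3.58 and 3.59 at T0, a change of -0.26 ± 0.17. RefSeq also lists CML39 as a synonym of CML37, so this name is not settled in the table. AT4G35987, a calmodulin N-methyltransferase, stood at -0.65 ± 0.25. AT1G16020 and AT1G80910 (CCZ1a and CCZ1b), whose proteins act in traffic to the vacuole, stood at -1.46 ± 0.31 (adjusted p = 0.0575 in limma) and -0.14 ± 0.20.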
